A study of Bos taurus with 9 samples.

Results

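The genes described here belong to the machinery of pyroptosis and necroptosis and were chosen by name, with earlier results of these data known. They were CASP4, CASP1, GSDMD, PYCARD, NLRP3, IL18, ZBP1, MLKL, RIPK1 and RIPK3. Of these 10, 9 had a row among the 17162 genes of the table, and CASP1 is not analysed here. In the RefSeq names for the ARS-UCD2.0 assembly all 10 symbols were found, CASP4 carries the older name CASP13, and CASP1 is its direct neighbour. Whether reads shared by this related pair of neighbours were split in the counting was not tested.

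Pyroptosis and necroptosis are forms of cell death in which the plasma membrane is broken open from within. In pyroptosis a sensor such as NLRP3 recruits the adaptor PYCARD (also called ASC) and the protease caspase-1, or caspase-4 acts on its own after binding bacterial lipopolysaccharide in the cytosol. These caspases cut gasdermin D (GSDMD), whose freed end forms pores, and caspase-1 is also the usual activator of the cytokine IL18. In necroptosis the kinases RIPK1 and RIPK3 bind each other through a short shared motif, the RHIM, which the nucleic acid sensor ZBP1 carries as well, and RIPK3 then activates the membrane-breaking protein MLKL. The pathways run on assembly, cutting and phosphorylation of proteins, so the mRNA levels below describe how much of the machinery was transcribed and not whether any cell died.

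The cells were BEND, primary wild-type endometrial cells grown from uteri of Holstein cows collected at an abattoir, purified by how fast they attach, used at low passage and kept in medium with fetal bovine serum. CON cells (n = 3) had no added hormone or interferon. GA cells (n = 3) were given estradiol (E2) at 1 nM together with progesterone (P4) at 100 nM. GB cells (n = 3) had the same hormones for 12 h and then interferon tau (IFNT), the type I interferon by which the ruminant conceptus signals its presence, at 100 ng/mL for a further 12 h. The sources used here do not give separate collection times for CON and GA, so IFNT and any difference in culture time cannot be told apart in the comparisons with GB. There was also no group given IFNT without hormones. Nothing says how many cows the dishes came from, so p-values measure the spread between these dishes, which may be technical.

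Levels are FPKM, fragments scaled to exon length and to the mapped reads of the library, as the authors computed them. The study gives clean read totals, but the files give no counts per gene. The number of fragments behind a value is therefore unknown. Correlation of log2 values within a group was 0.989 to 0.991. The treatment markers followed the labels. ISG15, an interferon-stimulated gene, was at most 7.01 FPKM in CON and GA and at least 5536 FPKM in GB, and GREB1, a steroid-responsive gene, was at most 0.38 FPKM in CON and at least 2.03 FPKM in GA and GB. The labels call the cells epithelial, and the study describes the cultures as positive for cytokeratin protein by immunofluorescence, which is not analysed here. All 7 epithelial markers looked at (4 keratins, CDH1, CLDN3 and CLDN4) had a mean under 1 FPKM in every group, and together they reached 0.64 to 2.14 FPKM in a library. The 7 stromal fibroblast markers, collagens and vimentin among them, summed to 14562 to 16704 FPKM. These transcripts therefore go against the epithelial label while the protein stain is for it, and the cells are called BEND below. In CON the stromal sum was 16134 to 16704 FPKM, in GA it was 16341 to 16655 and in GB 14562 to 14657. By limma 5 of the 7 had lower levels in GB when set against GA (adjusted p under 0.05), where 19.2% of all tested genes did. Against CON 4 of the 7 were lower, where 17.3% of tested genes were. In GA vs. CON 2 of the 7 were higher and 1 was lower, where 0.453% of tested genes passed in either direction. The 2 higher in GA were DCN and LUM, named after their values were seen, and both were among the 5. The part of these markers in the results was not tested. In such bulk RNA, fewer cells of a type and less RNA per cell cannot be told apart.

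In GB, 8 of the 9 measured genes stood above every CON and every GA library, and NLRP3 stood below them. ZBP1 moved from the edge of detection to over 100 FPKM, CASP4 reached 5.96 times its CON mean, RIPK3 2.92 times, GSDMD 2.27 times and MLKL 2.11 times. IL18, PYCARD and RIPK1 reached 1.93, 1.60 and 1.59 times. Between GA and CON no tested member passed the threshold. A gene was called a DEG when its log2FC lay beyond 1 in either direction with an adjusted p under 0.05, and "rose" is used below for any gene with an adjusted p under 0.05. The log2FC is on the log2(FPKM + 0.5) scale, which understates changes of low genes. Tests were made by limma with Benjamini-Hochberg adjustment over the 12578 genes with a mean of at least 0.5 FPKM.

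**Figure D1:**
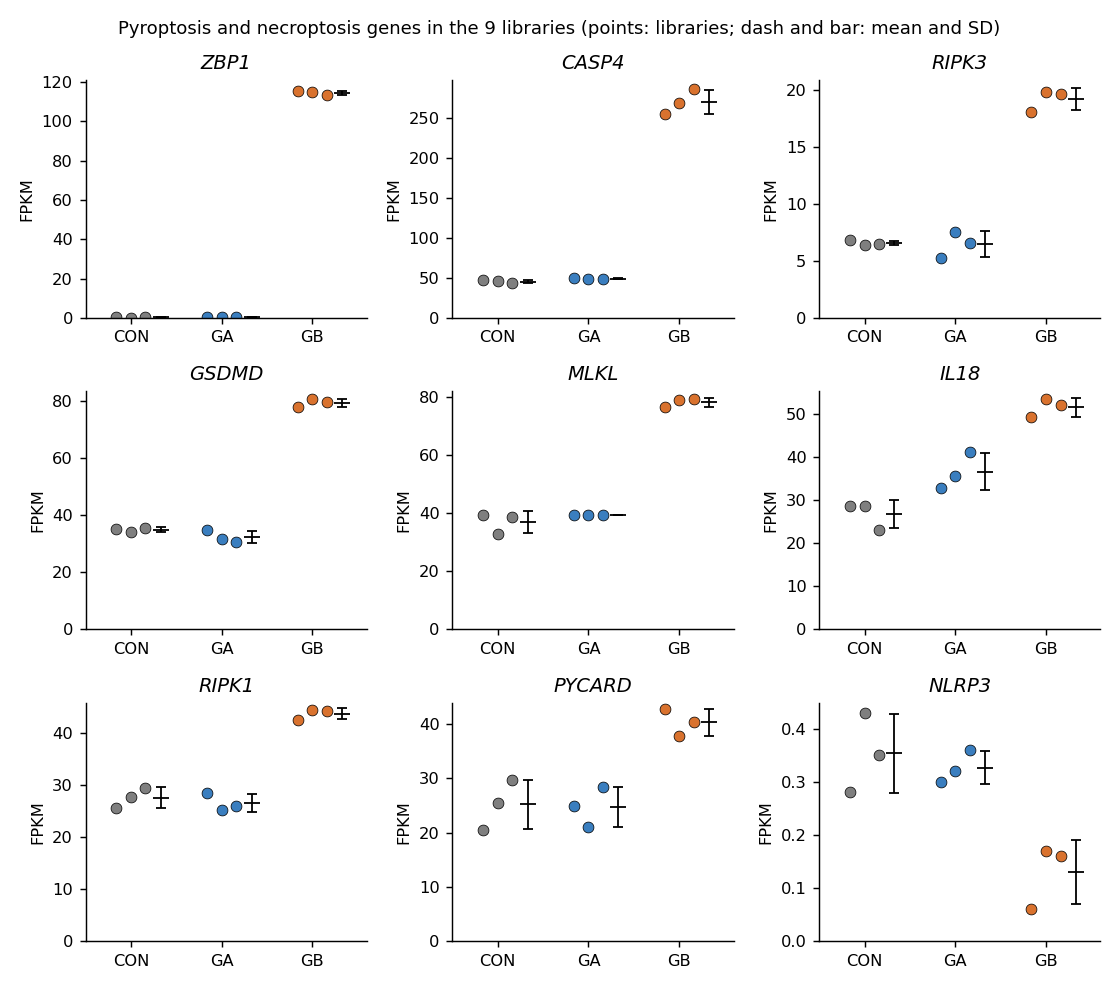
FPKM of the 9 measured genes (vertical axes, each from 0) in the 3 libraries of CON, GA and GB (points), with the mean and SD of each group beside them. In GB the points lie above those of CON and GA in 8 panels, and in the NLRP3 panel they lie below.

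CASP4, the caspase that senses cytosolic lipopolysaccharide, was the most abundant of the genes in all groups. Its level was 46.83, 46.18 and 42.96 FPKM in the CON libraries, 49.2, 48.73 and 48.98 in GA, and 255.64, 268.55 and 285.91 in GB. All GB libraries lay far above the others, and the GA libraries lay just above those of CON. The mean was 45.3 ± 2.07 FPKM in CON, 49.0 ± 0.235 in GA and 270.0 ± 15.2 in GB (SD, n = 3). CASP4 rose by a log2FC of 2.56 in GB vs. CON (SE 0.053, limma adjusted p = 8.150e-10) and by 2.45 in GB vs. GA (SE 0.053, limma adjusted p = 9.907e-10). For GA vs. CON the log2FC was 0.11 with a 95% confidence interval of -0.0083 to 0.23 (limma adjusted p = 0.283). CASP4 had a higher mean than 77.4% of the genes in the table in CON and than 95.1% in GB.

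GSDMD, the pore-forming substrate of CASP4, rose as well, with a smaller log2FC. The CON libraries held 35.3, 34.09 and 35.6 FPKM, the GA libraries 34.72, 31.68 and 30.72, and the GB libraries 77.89, 80.84 and 79.64. CON and GA overlapped, and GB lay above both. The log2FC was 1.17 in GB vs. CON (SE 0.055, limma adjusted p = 2.921e-07) and 1.28 in GB vs. GA (SE 0.055, limma adjusted p = 1.411e-07). For GA vs. CON it was -0.11, with a 95% confidence interval of -0.24 to 0.011 (limma adjusted p = 0.290).

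PYCARD, the adaptor that joins sensors to caspase-1, had the widest spread between replicates of the pyroptosis genes that were tested. It was at 20.52, 25.42 and 29.65 FPKM in CON, at 24.88, 21.07 and 28.43 in GA, and at 42.74, 37.78 and 40.49 in GB. The lowest GB library was still above the highest of the other groups. PYCARD rose by a log2FC of 0.68 in GB vs. CON (SE 0.14, limma adjusted p = 0.00507) and by 0.70 in GB vs. GA (SE 0.14, limma adjusted p = 0.00526), under the fold threshold for a DEG. With the GC content of the reads as a covariate the rise against CON no longer passed (log2FC 0.63, limma adjusted p = 0.1997), nor with the replicate block added (1.18, limma adjusted p = 0.0608). The interval for GA vs. CON, -0.33 to 0.30 around -0.018, leaves room for a change in either direction (limma adjusted p = 0.959).

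NLRP3, the sensor that PYCARD serves, was scarce and the only measured member lower in GB. Its FPKM was 0.28, 0.43 and 0.35 in CON, 0.3, 0.32 and 0.36 in GA, and 0.06, 0.17 and 0.16 in GB. Every GB library lay below every other library, with a GB mean 0.368 times that of CON and 0.398 times that of GA. How many genes lay below in this way was not counted. By adjusted p alone, 17.3% of the 12578 tested genes fell against CON and 19.2% against GA. With a mean under 0.5 FPKM, NLRP3 was left out of the tests. In a fit of all 17162 genes its log2FC was -0.44 in GB vs. CON (limma adjusted p = 0.0185) and -0.40 in GB vs. GA (limma adjusted p = 0.0315). With 0.5 added to each FPKM, even a complete loss from these levels stays within the fold threshold. A fall of NLRP3 therefore could not be called a DEG there, whatever its size. At these levels a value rests on few fragments, and the number behind each is unknown.

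IL18, the cytokine released through gasdermin pores, lay in steps from CON to GA to GB. CON libraries held 28.7, 28.56 and 23 FPKM, GA libraries 32.9, 35.68 and 41.26, and GB libraries 49.22, 53.51 and 51.99. No library of a group overlapped another group, as for CASP4 and MLKL, and the GA mean was 1.37 times that of CON. Against CON, IL18 rose in GB (log2FC 0.94, SE 0.10, limma adjusted p = 1.414e-04), and so it did against GA (log2FC 0.49, SE 0.10, limma adjusted p = 0.00676). The step from CON to GA had a log2FC of 0.45 with a 95% confidence interval of 0.21 to 0.68, an unadjusted p of 0.00188 and a limma adjusted p of 0.0877, and so did not pass. With GC content and replicate block together the rise of GB against CON was 0.84 and did not pass (limma adjusted p = 0.203).

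ZBP1, the sensor of left-handed (Z-form) nucleic acid that can engage RIPK3, showed the widest difference of the members. It was at 0.22, 0 and 0.52 FPKM in CON, at 0.31, 0.3 and 0.18 in GA, and at 115.36, 114.8 and 113.57 in GB. The CON and GA libraries overlapped near 0, and the GB libraries agreed closely with a mean of 114.6 ± 0.916 FPKM (SD, n = 3). ZBP1 rose by a log2FC of 7.33 in GB vs. CON (SE 0.22, limma adjusted p = 1.078e-08) and by 7.24 in GB vs. GA (SE 0.22, limma adjusted p = 1.189e-08). Since the low groups are near 0, the size of this log2FC depends on the pseudocount and the alternatives in GB vs. CON ran from 6.56 to 8.73. In the order of levels ZBP1 was last of 9 in CON and in GA and in place 2 in GB. It passed the filter on low values only through GB, so it could be tested only because it differed.

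RIPK1, the kinase that stands between survival and death signalling, was at 25.49, 27.71 and 29.38 FPKM in CON, at 28.43, 25.21 and 25.95 in GA, and at 42.45, 44.37 and 44.15 in GB. GB lay above both other groups, which overlapped. RIPK1 rose by a log2FC of 0.66 in GB vs. CON (SE 0.068, limma adjusted p = 8.854e-05) and by 0.71 in GB vs. GA (SE 0.068, limma adjusted p = 6.088e-05), under the fold threshold. The rise against CON did not pass with GC content and replicate block together (log2FC 0.78, limma adjusted p = 0.0841). Its difference in GA vs. CON was -0.052 (95% confidence interval -0.20 to 0.10, limma adjusted p = 0.701).

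RIPK3, the kinase that phosphorylates MLKL, was less abundant than RIPK1 in every group. CON libraries held 6.79, 6.39 and 6.47 FPKM, GA libraries 5.26, 7.52 and 6.53, and GB libraries 18.04, 19.81 and 19.61. GA spread around CON on both sides, and GB lay above all of them. The log2FC was 1.48 in GB vs. CON (SE 0.11, limma adjusted p = 1.244e-05) and 1.51 in GB vs. GA (SE 0.11, limma adjusted p = 1.133e-05). For GA vs. CON it was -0.036, with a 95% confidence interval of -0.29 to 0.22 (limma adjusted p = 0.887). With the GC content of the reads as a covariate and the replicate number as a block, the rise in GB vs. CON was 1.14 and no longer passed (limma adjusted p = 0.0709).

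MLKL, the protein that breaks the membrane, was at 39.29, 32.71 and 38.76 FPKM in CON, at 39.39, 39.34 and 39.44 in GA, and at 76.39, 78.7 and 79.05 in GB. GB lay above the rest, and GA lay just above CON. MLKL rose by a log2FC of 1.07 in GB vs. CON (SE 0.068, limma adjusted p = 3.113e-06) and by 0.98 in GB vs. GA (SE 0.068, limma adjusted p = 6.566e-06). These values sit on either side of the fold threshold, so MLKL was a DEG in GB vs. CON only, and both estimates differ by the GA vs. CON log2FC of 0.097 (95% confidence interval -0.057 to 0.25, limma adjusted p = 0.456). The DEG call against CON was lost without CON replicate 2, the lowest library, where the log2FC was 0.99, and with the GC content of the reads as a covariate (0.82).

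**Figure D2:**
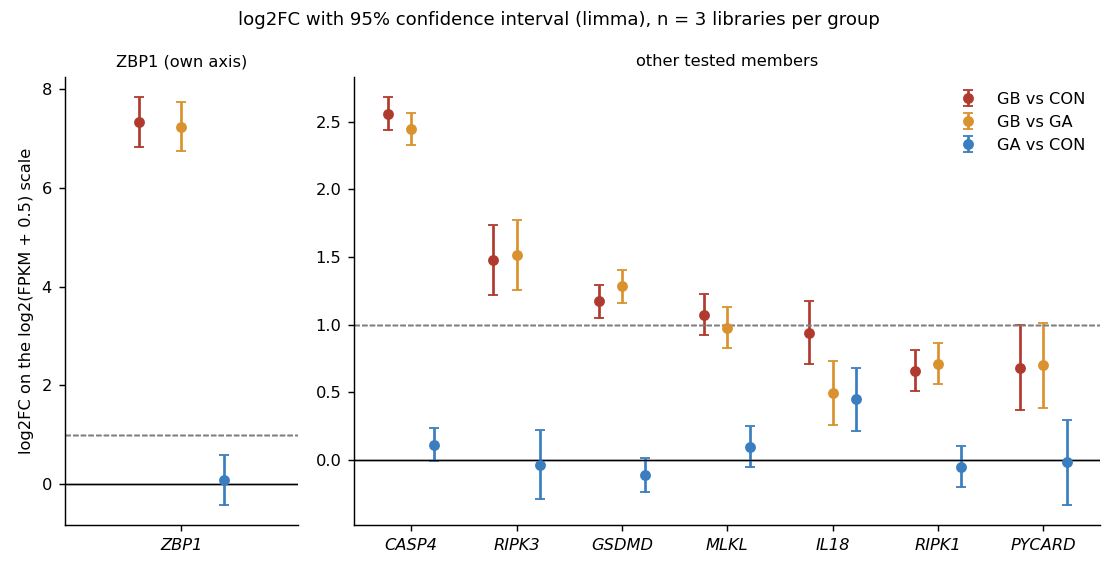
log2FC (vertical axes, log2(FPKM + 0.5) scale) of the 8 tested genes in GB vs. CON, GB vs. GA and GA vs. CON, with 95% confidence intervals from limma and n = 3 libraries per group. ZBP1 has its own axis, the dashed line marks a log2FC of 1, and MLKL lies close to that line while CASP4, RIPK3 and GSDMD lie above it in both comparisons that hold GB.

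Counted over the genes, 5 of the 8 tested were DEGs with higher levels in GB vs. CON (CASP4, GSDMD, ZBP1, MLKL and RIPK3), where 2.94% of all tested genes were. In GB vs. GA there were 4 (CASP4, GSDMD, ZBP1 and RIPK3), against 2.66% of all tested genes. By the adjusted p alone all 8 tested genes rose, where 16.2% of tested genes did against CON and 9.87% against GA. By limma 0 of the 8 fell, where 17.3% of tested genes did against CON and 19.2% against GA. With the GC content of the reads and the replicate block together, 4 of the 8 (CASP4, GSDMD, ZBP1 and MLKL) passed by adjusted p in GB vs. CON. The GB libraries of all 8 lay above those of the other group, as they did for 22.2% of tested genes against CON and 15.7% against GA. These counts leave out NLRP3 and CASP1 and hold ZBP1, whose test depended on its level in GB. The members were chosen with earlier results of these data known, so the shares over all tested genes are a description and no test of the set. The median log2FC of the 8 was 1.12 against CON and 1.13 against GA, beside -0.016 and -0.075 over all tested genes. Both comparisons share the GB libraries, so they are not independent of each other.

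In GA vs. CON, limma called 0 of the 8 genes DEGs, where 0.0716% of tested genes were called in either direction, and 0 passed by adjusted p alone, where 0.453% did. At an unadjusted p under 0.05, 2430 of the 12578 genes were found in this comparison, and of the 8 only IL18 was among them. The libraries did not overlap for 3 of the 8 (CASP4, IL18 and MLKL, each higher in GA), where 24.7% of tested genes did not overlap in either direction. The median log2FC of the 8 was 0.035, beside 0.061 over all tested genes. An exact two-sided permutation test of 3 against 3 libraries cannot go below p = 0.1, the value it gave for all 9 measured genes in both comparisons with GB.

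The order of the levels changed with the group. In CON it ran from CASP4 (45.3 FPKM) through MLKL (36.9), GSDMD (35.0), RIPK1 (27.5), IL18 (26.8), PYCARD (25.2), RIPK3 (6.55) and NLRP3 (0.353) to ZBP1 (0.247). The libraries of neighbours overlapped for MLKL and GSDMD, for RIPK1 and IL18, for IL18 and PYCARD, and for NLRP3 and ZBP1. In GA, IL18 stood in place 3 at 36.6 FPKM and overlapped MLKL above it and GSDMD below it. In GB the order was CASP4 (270.0), ZBP1 (114.6), GSDMD (79.5), MLKL (78.0), IL18 (51.6), RIPK1 (43.7), PYCARD (40.3), RIPK3 (19.2) and NLRP3 (0.130). There GSDMD and MLKL overlapped, as did RIPK1 and PYCARD.

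The proportions of the genes within a library were compared as well. RIPK3 to RIPK1 was 0.239 ± 0.024 in CON, 0.245 ± 0.057 in GA and 0.439 ± 0.012 in GB (ratio of FPKM, SD, n = 3). Every GB library held more RIPK3 per RIPK1 than any other library. MLKL to RIPK3 was lower in GB, at 4.08 ± 0.137 against 5.63 ± 0.456 in CON and 6.25 ± 1.14 in GA. CASP4 to GSDMD was 1.3 ± 0.079 in CON, 1.52 ± 0.091 in GA and 3.40 ± 0.167 in GB, with no overlap among the 3 groups. IL18 to CASP4 was 0.589 ± 0.046 in CON, 0.748 ± 0.088 in GA and 0.191 ± 0.0088 in GB, so GA lay above CON and GB below both. IL18 to the mRNA of its soluble inhibitor IL18BP overlapped in all groups, at 17.2 ± 3.82 in CON, 21.7 ± 11.7 in GA and 15.5 ± 3.64 in GB. Over the 7 ratios and 3 comparisons computed, 21 exact permutation tests in all, the smallest p was 0.1, the lowest possible, and 0.15 after Benjamini-Hochberg adjustment.

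**Figure D3:**
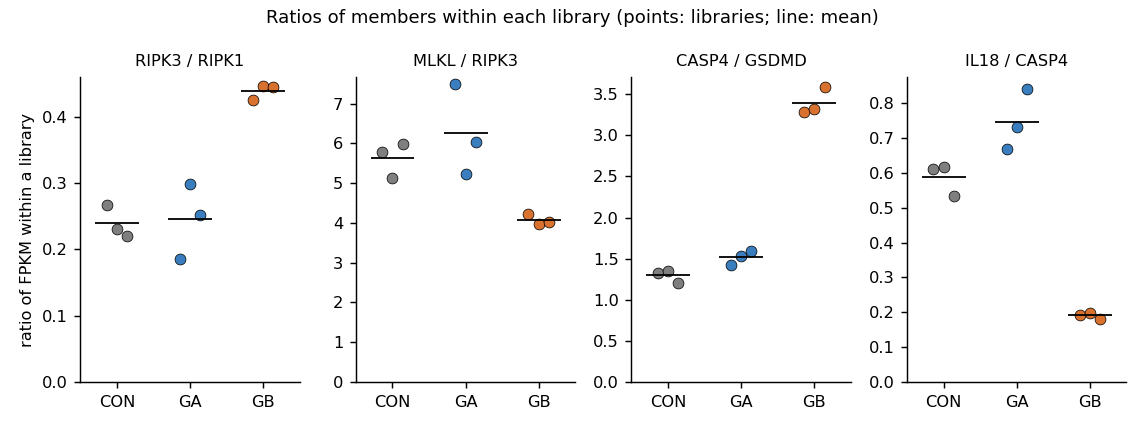
Ratio of FPKM within each library (vertical axes, from 0) for 4 pairs of genes, with 3 libraries per group as points and the mean as a line. RIPK3 to RIPK1 and CASP4 to GSDMD are higher in all GB libraries than in CON and GA, and MLKL to RIPK3 and IL18 to CASP4 are lower.

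Over the 9 libraries the levels of CASP4, GSDMD, ZBP1, MLKL, RIPK1 and RIPK3 followed each other closely, with Pearson r of 0.944 to 0.995 for their 15 pairs on the log2 scale. PYCARD reached 0.848 to 0.929 with these 6, and the 7 pairs with IL18 gave 0.707 to 0.864. All points share the split between GB and the other groups, so these values describe that split and carry no test. The genes most like CASP4 among all tested were ACSL5 (r = 0.999), LOC512486 and HERC5. For GSDMD they were IFI6 (r = 0.999), ISG20 and TREX1, for ZBP1 BOLA-NC1 (r = 0.999), ISG12(B) and DAXX, and for RIPK3 LRRK1 (r = 0.994), ATXN3 and GRAMD1C.

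Other genes of the same pathways were counted by list, and the lists too were chosen with earlier results of these data known. In the list of inflammasome sensors other than NLRP3, which also holds NOD1 and NOD2, 8 of the 13 listed were in the table and 2 were tested. NOD1, named after its value was seen, did not pass in GB vs. GA (log2FC -0.094, limma adjusted p = 0.555). IFI16, a sensor of nuclear and cytosolic DNA, was a DEG in GB vs. GA, rising from 13.08 to 15.38 FPKM in GA to 254.77 to 267.02 FPKM in GB (log2FC 4.15, SE 0.095, limma adjusted p = 1.381e-09). Of the 10 tested genes that license NLRP3 or move its triggering ions, 0 were DEGs in GB vs. GA by limma, 3 rose (P2RX7, PANX1 and TXNIP) and 1 fell, all named after their values were seen. The 1 that fell was NEK7, the kinase that NLRP3 needs for assembly (log2FC -0.66, SE 0.11, limma adjusted p = 0.00177). In GB vs. GA, 9.87% of all tested genes rose, 19.2% fell and 2.66% were DEGs with higher levels. Against CON, 4 of the 10 rose, 3 fell and 1 was a DEG with higher levels, beside 16.2%, 17.3% and 2.94% of tested genes. P2RX7, the ATP-gated channel that lets potassium out, was a DEG in GB vs. CON (log2FC 1.19, SE 0.19, limma adjusted p = 0.00149) and had a log2FC of 0.86 in GB vs. GA (limma adjusted p = 0.00955).

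No relative of GSDMD that was tested passed. Of the other gasdermins and NINJ1, the protein of final membrane rupture, 4 were tested and by limma 0 passed in either comparison with GB. Their log2FC ran from -0.30 to 0.29 in GB vs. GA. Of all tested genes 9.87% rose and 19.2% fell in GB vs. GA, and 16.2% and 17.3% did against CON. With only 4 genes, 0 cannot be told apart from these shares. The difference between GSDMD and these genes was not tested. In the list of other inflammatory caspases and CARD proteins the inhibitor SERPINB1 was the only gene tested (log2FC 0.078 in GB vs. GA and 0.21 in GB vs. CON, where it rose). Of 10 tested interleukin-1 family ligands and receptors, 0 were DEGs in GB vs. GA, 1 rose and 2 fell (IL1R1, log2FC -0.43, and IL1RL1, -0.47), all named after their values were seen. That is near the 9.87% of all tested genes that rose and the 19.2% that fell. DEGs with higher levels were 2.66% of all tested genes there. The 1 that rose was the IL18 receptor chain IL18R1, at 122.69 to 133.79 FPKM in GA and 141.37 to 154.66 FPKM in GB (log2FC 0.21, SE 0.064, limma adjusted p = 0.0384). Against CON, 2 of the 10 rose (IL18R1 and IL18BP), 2 fell (IL1R1 and IL1RL1) and 0 were DEGs. Of all tested genes 16.2% rose, 17.3% fell and 2.94% were DEGs with higher levels. IL18BP had a log2FC of 0.90 in GB vs. CON (SE 0.26, limma adjusted p = 0.0261) and of 0.71 in GB vs. GA, where it did not pass (SE 0.26, limma adjusted p = 0.0699).

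On the necroptosis side, the list of the TNF receptor complex and the caspase-8 checkpoint had 27 tested genes, of which 11 rose and 3 fell (CHUK, OTULIN and TNIP1, named after their values were seen) in GB vs. GA, with a median log2FC of 0.10. Of all tested genes 9.87% rose and 19.2% fell there. Against CON, 12 rose and 1 fell, beside 16.2% and 17.3% of all tested genes. In both comparisons 2 of the 27 were DEGs with higher levels, where 2.66% of all tested genes were against GA and 2.94% against CON. CASP8, the protease that cuts RIPK1 and RIPK3 and so holds necroptosis back, was at 9.65 to 9.82 FPKM in GA and 44.86 to 51.48 FPKM in GB (log2FC 2.27, SE 0.095, limma adjusted p = 1.276e-07). RBCK1, a subunit of the linear ubiquitin ligase at the TNF receptor, had a log2FC of 1.84 (SE 0.091, limma adjusted p = 4.854e-07). Its level was 32.9 to 35.6 FPKM in GA and 119.97 to 129.14 FPKM in GB.

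The list of RHIM inputs, Z-RNA control, other RIP kinases and related genes gave 3 DEGs among 8 tested in GB vs. GA. In it 4 rose and 1 fell (RIPK2, log2FC -0.32). The fourth to rise was PELI1 (0.31), and both were named after their values were seen. Of all tested genes 9.87% rose, 19.2% fell and 2.66% were DEGs with higher levels. Against CON, 4 rose, 0 fell and 3 were DEGs, beside 16.2%, 17.3% and 2.94%. EIF2AK2, the double-stranded RNA-activated kinase PKR, rose to 210.31 to 221.43 FPKM from 25.97 to 26.74 (log2FC 3.0, SE 0.059, limma adjusted p = 5.571e-10). ADAR, which edits double-stranded RNA and whose long form binds Z-RNA, had a log2FC of 2.13 (SE 0.049, limma adjusted p = 1.365e-09). TLR3, the endosomal RNA sensor whose adaptor carries a RHIM, had a log2FC of 1.04 (SE 0.11, limma adjusted p = 1.449e-04). Downstream, in the list of MLKL regulators and membrane repair, 18 genes were tested and 0 were DEGs by limma in either comparison with GB. In GB vs. GA 1 of them rose (PGAM5) and 2 fell (FLOT2 and ITPK1), all named after their values were seen, and the 18 log2FC values ran from -0.32 to 0.44. Against CON, 4 rose and 3 fell. The shares over all tested genes were 9.87% and 19.2% in GB vs. GA and 16.2% and 17.3% in GB vs. CON, so the counts that rose were near the background. DEGs with higher levels were 2.66% and 2.94% of all tested genes, so 0 of 18 was near the background as well. In GA vs. CON, 0 genes of any of these pathway lists passed in limma, where 0.453% of all tested genes passed in either direction. At that share 0 is near the background.

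**Figure D4:**
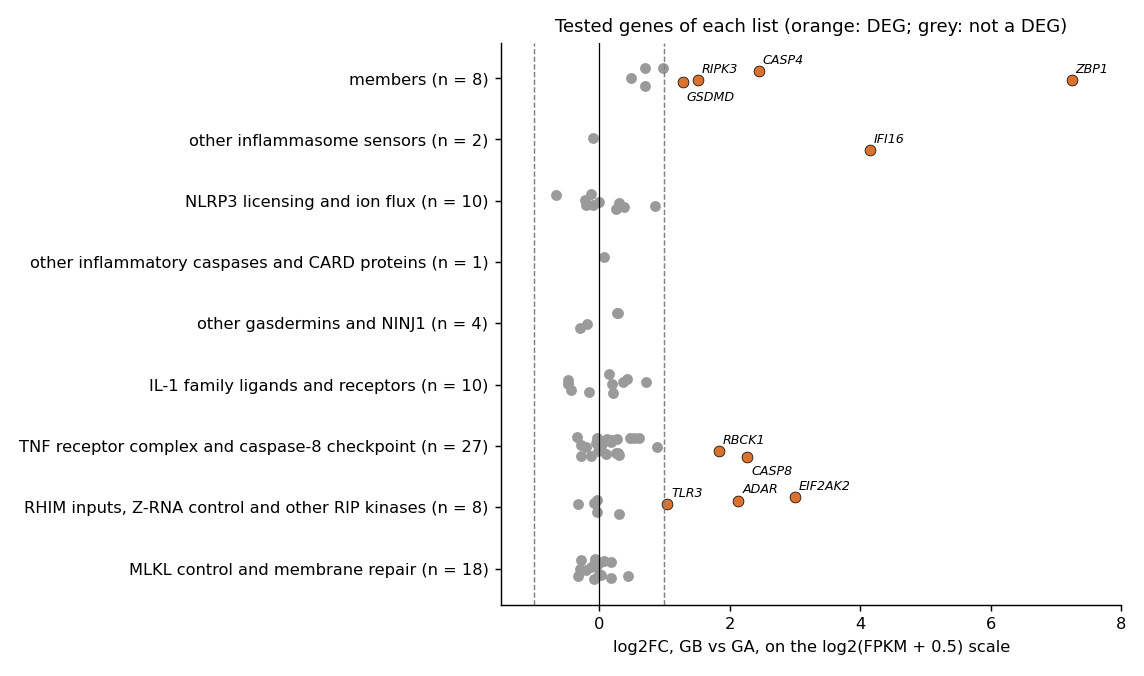
log2FC in GB vs. GA (horizontal axis, log2(FPKM + 0.5) scale) of the tested genes in the 9 lists, 1 point per gene, with DEGs in orange and named and dashed lines at -1 and 1. The members reach 7.24 with ZBP1. IFI16, CASP8, RBCK1, EIF2AK2, ADAR and TLR3 are the DEGs of the other lists, and the gasdermin and MLKL control lists stay within the lines.

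Leukocytes are rich in several of these proteins, so their markers were measured as well. Of 10 leukocyte markers in the table, 5 were tested, and the summed level overlapped between the groups, with CON at 29.6 to 36.9 FPKM, GA at 34.9 to 40.5 and GB at 32.9 to 46.1. CD14 was the largest part of this sum in every library, and its level lay between 16.69 and 23.27 FPKM. FCER1G ranged from 1.7 to 10.92 FPKM over the 9 libraries, and CD68 from 3.13 to 4.43 FPKM. CD14, FCER1G and CD68 were named after their values were seen, and by limma they did not pass in any comparison. ITGAM and NKG7 were at 0 in all CON and all GB libraries, and CD79A in all GA libraries. The macrophage marker CD163, named after its value was seen, was a DEG at 1.84 to 1.95 FPKM in GA and 9.08 to 9.42 FPKM in GB (log2FC 2.03, limma adjusted p = 1.133e-06). The 4 endothelial markers summed to 1.6 to 2.2 FPKM for CON, 1.33 to 1.68 for GA and 2.15 to 3.34 for GB. Only CDH5, named after its value was seen, was tested. It rose in GB vs. GA (log2FC 0.68, limma adjusted p = 0.0395), as 9.87% of all tested genes did. Against CON it did not pass (log2FC 0.34, limma adjusted p = 0.253). The part of any of these cells in the results was not tested.

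CASP4, GSDMD and ZBP1 were DEGs in both comparisons with GB under all 21 alternative settings. RIPK3 was a DEG under all 21 against GA and under 20 against CON, and MLKL under 18 against CON and 2 against GA. PYCARD, IL18 and RIPK1 were DEGs under 0 of them in limma. Their highest limma adjusted p over the alternatives against GA was 0.0222, 0.0288 and 0.00136. Against CON it was 0.1997, 0.203 and 0.0841, so each no longer passed against CON under at least 1 setting with the GC content. The log2FC in those fits was 0.63, 0.84 and 0.78, beside 0.68, 0.94 and 0.66 as reported. GC content partly followed the groups, so these fits cannot fully tell GC content and group apart.

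**Figure D5:**
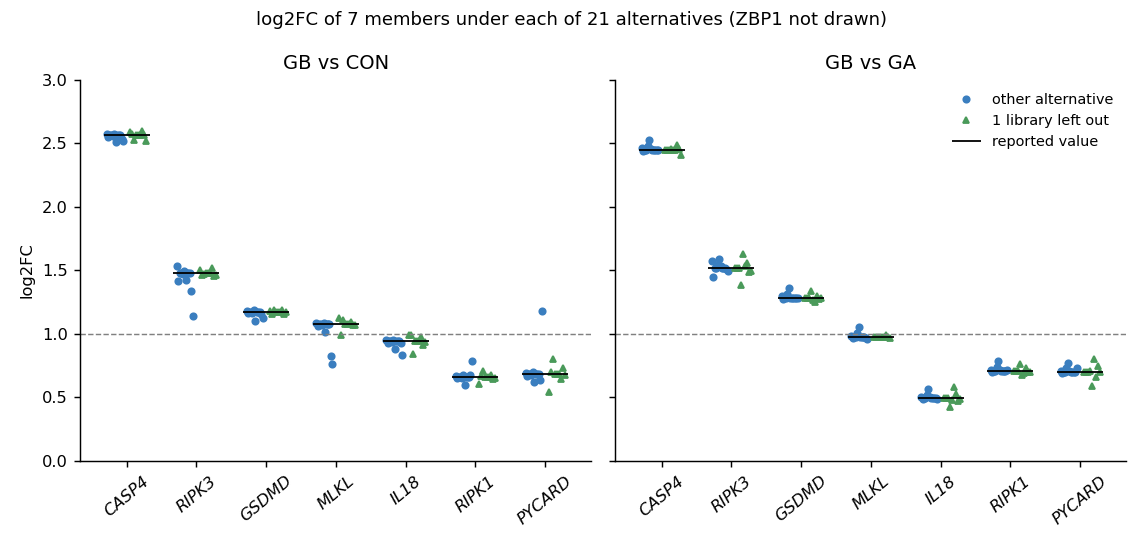
log2FC (vertical axis) of 7 tested genes, GB against CON (left) and against GA (right), under each of 21 alternative settings, with libraries left out as triangles, other settings as circles and the reported value as a line. CASP4 and GSDMD stay above the dashed line at 1 throughout, IL18 and RIPK1 stay below it, PYCARD reaches 1.18 in a single setting against CON, MLKL crosses it, and RIPK3 ranges from 1.14 to 1.53 in GB vs. CON.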

How the data were processed

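Poly-T selected RNA of BEND was sequenced from directional libraries in 3 replicates each of CON, GA and GB, grouped by the sample labels. Per the methods and the submitters' processing notes, reads were trimmed with fastp 0.21.0, cleared of rRNA with Bowtie2, aligned to ARS-UCD1.2 with HISAT2 2.2.1 and counted per gene with RSEM 1.3.3. The authors deposited FPKM for each gene in each library, to 2 decimals. Whether counting used strand is not given in the sources used here. Their own test was DESeq2 1.34.0 on counts, which FPKM do not allow.

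Here, log2(FPKM + 0.5) was taken, and genes averaging at least 0.5 FPKM (12578 of 17162) were fitted in R 4.3.3 with limma 3.58.1, with a mean per group over all 9 libraries, a variance trend and Benjamini-Hochberg adjustment. DEGs had |log2FC| above 1 and adjusted p under 0.05. The procedure was tested on simulated data. Plots used matplotlib 3.10.9 under Python 3.11.15. The members and lists were chosen with earlier results of these data known. Named were all members, up to 3 DEGs of GB vs. GA per list with the largest log2FC, and the 3 genes most correlated with each member that was a DEG in GB vs. GA. Genes outside that rule are marked in the text. Alternatives were the pseudocount (0.1 or 1), the filter (none or a mean of 1), TPM, median-of-ratios or quantile scaling, no variance trend, fitting only the groups compared, the replicate block, read GC content per library as the study gives it, both of these together, and each library left out. Same-numbered libraries did not deviate together. Sequences are not shown.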

Additional observations from a re-analysis of the deposited data

How the results depend on the processing

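Of 21 alternatives, 9 of them libraries left out, each was applied to the 8 tested members in each comparison. In GB vs. CON 164 of 168 values kept direction and call, in GB vs. GA 166 of 168, and in GA vs. CON 158 of 168. The number of members called in GB vs. CON went from 5 to 3 (CASP4, GSDMD and ZBP1) with the GC content and the replicate block together, where 4 members passed by adjusted p alone instead of 8. PYCARD also failed with the GC content alone (adjusted p = 0.1997). It was 4 to 5 with a library left out, 4 in each such fit for GB vs. GA and 0 for GA vs. CON. MLKL lost its call in GB vs. CON with the GC content (log2FC 0.82), with GC content and block (0.76) and without CON replicate 2 (0.99), and RIPK3 with GC content and block (1.14). MLKL was called in GB vs. GA with TPM (1.01) and median-of-ratios factors (1.05). The causes were not tested, and GC content partly followed the groups.

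All reversals were in GA vs. CON, where no member passed. With the GC content ZBP1 was at -0.48 and MLKL at -0.14. With GC content and replicate block ZBP1 was at -0.50, MLKL at -0.20, PYCARD at 0.45 and RIPK1 at 0.068. With a library left out ZBP1 ran from -0.17 (without CON replicate 2) to 0.34, PYCARD from -0.15 to 0.11 (without CON replicate 3, and 0.092 without GA replicate 2), and RIPK3 from -0.15 to 0.091 (without GA replicate 1). The replicate block alone left 5, 4 and 0 members called in GB vs. CON, GB vs. GA and GA vs. CON. Deviations of same-numbered libraries had an r of -0.031 to 0.077 over 9 pairs, so no pairing by replicate number was seen. These values cannot tell whether such dishes shared a cow or a batch. The number of fragments behind each value is unknown, which limits NLRP3 and the low values of ZBP1 most.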
